A study of Mus musculus with 12 samples.

Results

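The branched-chain amino acid (BCAA) catabolism genes Bcat2, Bckdha, Bckdhb, Bckdk, Dbt, Ivd, Mccc1, Mccc2, Pcca and Hibadh were described in epididymal white adipose tissue (eWAT) of mice. They were chosen by symbol in the gene-name column of the deposited table. All 10 were found among 23133 genes, and all 10 were among the 12814 genes tested.

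The study asked how a chrysanthemum leaf ethanol extract (CLE) and luteolin (LU), a flavonoid, act on diet-induced obesity. Male C57BL/6J mice received their diets from 5 weeks of age for 16 weeks and were 21 weeks old at the end. The 4 groups were a normal diet (ND), a high-fat diet (HFD), the HFD with 1.5% (w/w) CLE and the HFD with 0.003% (w/w) LU, so that the CLE and LU mice also ate the HFD. RNA of the whole fat pad was sequenced from 3 mice of each group, which gave 12 libraries. These mice were described as representative of larger groups, and no transgene or deletion was involved. In whole tissue, fewer adipocytes and less RNA per adipocyte cannot be told apart for any gene below.

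The authors deposited FPKM, which are fragment numbers scaled by transcript length and by library size. Reads per gene cannot be recovered from them, so the depth is unknown. The transcripts of a gene were summed. Totals over genes lay between 438191 and 458413 FPKM per library, and libraries of the same group correlated at r of 0.978 to 0.991 across genes. The labels of 4 libraries (ND 3, ND 4, CLE 4 and LU 2) carry a letter R that the sources do not explain, and it is absent from the HFD labels. Their 4 column headers also hold digits written like a calendar day. The column used for ND mouse 4 has a header that differs from the label by 1 letter and was assigned by inference. The adipocyte markers Adipoq and Plin1 were high in every library, at 1107 to 2292 and 433.5 to 850 FPKM, which fits the labelled tissue.

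Valine, leucine and isoleucine are degraded in mitochondria, and adipose tissue is known as a site of this pathway. BCAT2 removes the amino group reversibly. The resulting keto acids are committed to breakdown by the branched-chain keto acid dehydrogenase (BCKDH) complex, which is built from E1 alpha (Bckdha), E1 beta (Bckdhb), E2 (Dbt) and the shared E3 (Dld). The kinase BCKDK switches the complex off by phosphorylation and the phosphatase PPM1K switches it on. Downstream, IVD and the 2 subunits of methylcrotonyl-CoA carboxylase (Mccc1 and Mccc2) act on leucine, HIBADH acts on valine, and propionyl-CoA carboxylase (Pcca and Pccb) takes up the propionyl-CoA from valine and isoleucine.

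A gene was said to rise or fall where limma gave a Benjamini-Hochberg adjusted p under 0.05, over all genes tested in that comparison, together with a fold change over 1.5. Fold changes are on the log2(FPKM + 1) scale and are given with the standard error (SE). The exact permutation test of 3 mice against 3 cannot give a p below 0.1, so a single gene cannot pass 0.05 by that test.

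Of the 10 genes, 9 fell in HFD mice relative to ND mice, and the remaining gene, Bckdk, had an adjusted p of 0.0165 (limma) with a fold of 1.27. Of all genes tested, 10.8% fell in this comparison, and 24.8% were lower by the adjusted p alone, as all 10 of these genes were. The 3 ND values lay above the 3 HFD values for all 10 genes, as they did for 29.3% of all genes. The median log2 fold change was -0.93 over the 10 genes and -0.02 over all genes. CLE raised 4 of the 10 genes relative to HFD (Bckdha, Bckdhb, Ivd and Hibadh), against 6.34% of all genes that rose. LU raised 1, Bckdhb, against 4.77% of all genes.

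**Figure D1:**
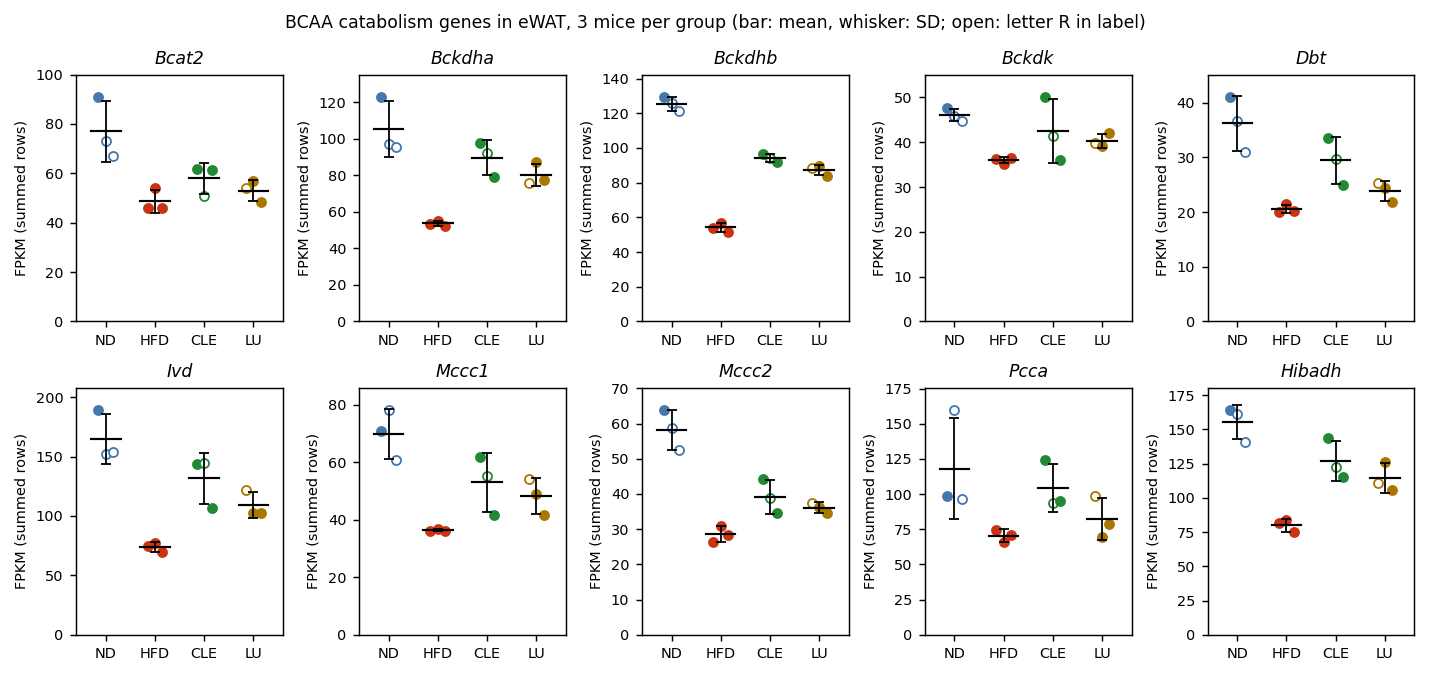
FPKM of the 10 BCAA catabolism genes (y axes, from 0) in each library of the 4 groups (x axes), with the group mean as a bar and the SD as a whisker; open points are the libraries with the letter R. The HFD points lie below the ND points in every panel, for example between 51.6 and 57.0 FPKM for Bckdhb, where every ND point is above 121.

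FPKM is a measure per length, so levels of different genes can be set side by side. In ND mice the highest mean levels, over all transcripts of a gene, were those of Ivd (165 ± 20.9 FPKM, SD, n = 3) and Hibadh (156 ± 12.6 FPKM, SD, n = 3), whose ranges overlapped. Bckdhb (125 ± 4.11 FPKM), Pcca (118 ± 35.9 FPKM) and Bckdha (105 ± 15.4 FPKM) came next, and their ranges also overlapped. Bcat2, Mccc1 and Mccc2 followed at 77.1, 69.9 and 58.3 FPKM, each overlapping its neighbour. Bckdk (46.1 ± 1.40 FPKM) and Dbt (36.2 ± 5.08 FPKM) were lowest, and neither overlapped the gene above it. Transcripts that GENCODE types as not protein coding held 53.6% of the mean FPKM of Ivd and 43.7% of that of Pcca, against at most 1.4% for the other 8 genes. Assembled transcripts and those absent from the GENCODE release used have no type there and were not counted as non-coding. Among them, ENSMUST00000148922 held 16.4% of Mccc1 and ENSMUST00000153219 held 6.69% of Bcat2, so the non-coding part of these genes is not known. Without them Ivd (81.7 ± 10.6 FPKM) and Pcca (62.4 ± 9.04 FPKM) in ND mice were below Hibadh (153 ± 11.7 FPKM), Bckdhb and Bckdha. In HFD mice Dbt was again lowest, at 20.6 ± 0.774 FPKM, and Hibadh was highest, at 79.9 ± 4.60 FPKM.

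The values of single libraries are given below in the order ND mice 2, 3 and 4, HFD mice 12, 15 and 18, CLE mice 2, 4 and 11, and LU mice 2, 3 and 8. The mouse numbers are those of the labels.

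Bcat2, the mitochondrial aminotransferase of the entry step (GRCm38 chromosome 7, 45570153 to 45589711, plus strand), was at 90.9, 73.3 and 67.0 FPKM in ND, 45.9, 54.1 and 45.9 FPKM in HFD, 61.8, 50.7 and 61.3 FPKM in CLE, and 54.1, 56.8 and 48.3 FPKM in LU. The ND mice were above all others, and the 3 HFD-fed groups overlapped each other. It fell by 0.65 (SE 0.13) on the log2 scale in HFD relative to ND, with an adjusted p of 0.00148 (limma). Without ND mouse 2 the change was -0.52 (adjusted p = 0.00546), under the fold of 1.5. Relative to HFD, the log2 fold change was 0.25 with CLE (adjusted p = 0.161) and 0.12 with LU (adjusted p = 0.505). Bcat2 thus had the second smallest CLE difference and the smallest LU difference of the 10 genes.

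Bckdha, E1 alpha (chromosome 7, 25629946 to 25658981, minus strand), was at 123, 97.2 and 95.5 FPKM in ND, 53.6, 55.2 and 52.4 FPKM in HFD, 97.8, 92.1 and 79.0 FPKM in CLE, and 75.9, 87.2 and 77.6 FPKM in LU. All HFD values lay below all others, and the CLE and ND values overlapped. It fell by 0.95 (SE 0.11; adjusted p = 4.45e-05) in HFD, rose by 0.72 (adjusted p = 0.000643) with CLE, and had a log2 fold change of 0.57 (adjusted p = 0.00424) with LU, just under the fold of 1.5.

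Bckdhb, E1 beta (chromosome 9, 83925145 to 84124240, plus strand), was at 129, 126 and 121 FPKM in ND, 54.1, 57.0 and 51.6 FPKM in HFD, 96.4, 94.4 and 92.0 FPKM in CLE, and 88.2, 89.7 and 84.0 FPKM in LU. None of the 4 groups overlapped another, and their order was ND, CLE, LU and HFD. It had the largest HFD difference of the 10 genes, a fall of 1.19 (SE 0.07; adjusted p = 7.19e-07), which is a fold of 2.29. It rose by 0.79 (SE 0.07; adjusted p = 2.97e-05) with CLE and by 0.68 (SE 0.07; adjusted p = 0.000189) with LU, and was the 1 gene of the 10 that passed in all 3 of these comparisons.

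Dbt, the E2 core of the complex (chromosome 3, 116513070 to 116549981, plus strand), was at 41.0, 36.6 and 30.9 FPKM in ND, 20.1, 21.5 and 20.2 FPKM in HFD, 33.6, 29.7 and 25.0 FPKM in CLE, and 25.3, 24.4 and 21.8 FPKM in LU. Each LU mouse was above each HFD mouse, the nearest pair being 21.8 and 21.5 FPKM. It fell by 0.78 (SE 0.12; adjusted p = 0.000331) in HFD. With CLE its log2 fold change of 0.49 had an adjusted p of 0.0106 (limma) but missed the fold of 1.5, and with LU it was 0.20 (adjusted p = 0.259).

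Bckdk, the kinase that inactivates the complex (chromosome 7, 127904082 to 127910221, plus strand), was at 47.6, 45.8 and 44.8 FPKM in ND, 36.3, 35.2 and 36.5 FPKM in HFD, 50.1, 41.4 and 36.0 FPKM in CLE, and 39.8, 39.1 and 42.1 FPKM in LU. CLE mouse 11 lay within the HFD values and CLE mouse 2 above the ND values. Its difference between HFD and ND, -0.35 (SE 0.10) on the log2 scale, was the smallest of the 10 genes. The log2 fold change relative to HFD was 0.22 (adjusted p = 0.127) with CLE and 0.16 (adjusted p = 0.288) with LU.

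Since the kinase differed less between groups than the subunits it acts on, their ratio within each library was computed, a choice made after the values were seen. The ratio of Bckdk to Bckdhb FPKM was 0.368, 0.364 and 0.370 in ND, 0.670, 0.618 and 0.708 in HFD, 0.520, 0.439 and 0.391 in CLE, and 0.452, 0.436 and 0.501 in LU. All HFD ratios were above all others, and the ND ratios were below all others. The ratio of Bckdk to Bckdha was 0.442 ± 0.0481 in ND, 0.671 ± 0.0305 in HFD, 0.473 ± 0.0347 in CLE and 0.505 ± 0.0499 in LU (SD, n = 3), and again the HFD mice were highest. Both ratios reached the smallest exact permutation p, 0.1 (two-sided), for HFD against each of the other groups. The ratios were picked from differences already seen, so this separation repeats those values and is no further evidence. The ratio of Bckdk to the phosphatase gene Ppm1k was 8.84 ± 0.765 in ND, 12.8 ± 0.634 in HFD, 8.96 ± 0.425 in CLE and 10.9 ± 1.91 in LU (SD, n = 3), with the LU and HFD mice overlapping. Transcript ratios say nothing of the phosphorylation of the complex, which was not measured.

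**Figure D2:**
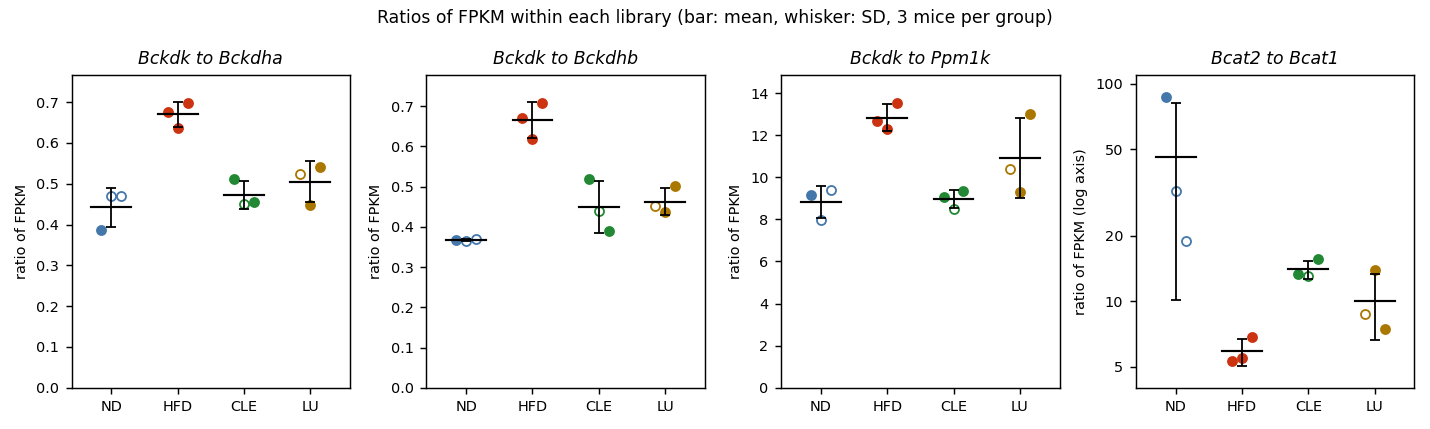
Ratios of FPKM within each library (y axes; the panel of Bcat2 to Bcat1 has a log axis) by group (x axes), with mean bars and SD whiskers, n = 3. In the panel of Bckdk to Bckdhb the HFD points lie between 0.618 and 0.708, above all other points.

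The leucine branch followed the same order of groups. Ivd, isovaleryl-CoA dehydrogenase (chromosome 2, 118861954 to 118882909, plus strand), was at 189, 152 and 154 FPKM in ND, 74.4, 77.3 and 69.3 FPKM in HFD, 143, 145 and 107 FPKM in CLE, and 122, 103 and 102 FPKM in LU. CLE mouse 11 lay among the LU mice, and every HFD value was lowest. It fell by 1.15 (SE 0.13; adjusted p = 3.39e-05) in HFD and rose by 0.82 (SE 0.13; adjusted p = 0.000788) with CLE, the largest CLE difference of the 10 genes. With LU the log2 fold change was 0.56 (adjusted p = 0.0104), under the fold of 1.5. Without its non-coding transcripts Ivd fell by 1.37 (adjusted p = 6.07e-06) in HFD and rose by 0.94 (adjusted p = 0.000209) with CLE and by 0.65 (adjusted p = 0.00327) with LU.

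Mccc1, the biotin-carrying subunit of methylcrotonyl-CoA carboxylase (chromosome 3, 35959312 to 36000678, minus strand), was at 70.9, 78.2 and 60.8 FPKM in ND, 36.2, 37.0 and 36.3 FPKM in HFD, 62.0, 55.4 and 41.7 FPKM in CLE, and 54.1, 49.0 and 41.7 FPKM in LU. The HFD mice lay close together, while the CLE mice spread from the LU minimum to the lowest ND values. It fell by 0.91 (SE 0.15; adjusted p = 0.000349) in HFD. The log2 fold change was 0.51 with CLE (adjusted p = 0.0196) and 0.39 with LU (adjusted p = 0.0703).

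Mccc2, the partner subunit (chromosome 13, 99948530 to 100015639, minus strand), was at 63.8, 58.7 and 52.4 FPKM in ND, 26.4, 30.9 and 28.4 FPKM in HFD, 44.2, 38.9 and 34.6 FPKM in CLE, and 37.5, 36.3 and 34.5 FPKM in LU. The ND mice stood above, and the HFD mice below, all CLE and LU mice. It fell by 1.00 (SE 0.11; adjusted p = 1.86e-05) in HFD, and the log2 fold change was 0.44 with CLE (adjusted p = 0.00833) and 0.33 with LU (adjusted p = 0.0404). The ratio of Mccc1 to Mccc2 FPKM was 1.201 ± 0.116 in ND and 1.28 ± 0.0857 in HFD (SD, n = 3), a difference within the spread (exact permutation p = 0.4, two-sided).

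Hibadh, the dehydrogenase of the valine branch (chromosome 6, 52546228 to 52640389, minus strand), was at 164, 162 and 141 FPKM in ND, 81.4, 83.5 and 74.7 FPKM in HFD, 143, 123 and 115 FPKM in CLE, and 111, 127 and 106 FPKM in LU. All HFD mice were lowest, and CLE mouse 2 reached the ND range. It fell by 0.95 (SE 0.11; adjusted p = 2.67e-05) in HFD and rose by 0.66 (adjusted p = 0.000767) with CLE. Its log2 fold change with LU was 0.51 (adjusted p = 0.00513), under the fold of 1.5.

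Pcca, the alpha subunit of propionyl-CoA carboxylase (chromosome 14, 122534324 to 122891100, plus strand), was the least even of the 10 genes, at 98.6, 160 and 96.4 FPKM in ND, 74.8, 65.7 and 70.7 FPKM in HFD, 124, 93.5 and 95.1 FPKM in CLE, and 98.6, 69.2 and 79.1 FPKM in LU. ND mouse 3 stood far above the other ND mice. It fell by 0.70 (SE 0.19; adjusted p = 0.0106) in HFD, and without ND mouse 3 the change was -0.47 (adjusted p = 0.0324), under the fold of 1.5. The log2 fold change was 0.55 with CLE (adjusted p = 0.0476) and 0.21 with LU (adjusted p = 0.454).

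Much of the spread of Pcca lay in a transcript that GENCODE types as not protein coding, ENSMUST00000156755, which held 35.5% of the gene's mean FPKM. It was at 75.5 FPKM in ND mouse 3 and between 9.16 and 46.1 FPKM elsewhere. When transcripts of non-coding types were left out of every gene, a setting chosen after these values were seen, Pcca fell by 0.65 in HFD (adjusted p = 0.000811), and its log2 fold change was 0.52 with CLE (adjusted p = 0.00612) and 0.43 with LU (adjusted p = 0.0200). The gene Ggact lies on the opposite strand of Pcca, at a mean of 9.34 FPKM. The strand setting of the counting is not given in the sources used here, so reads of overlapping genes cannot be told apart.

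**Figure D3:**
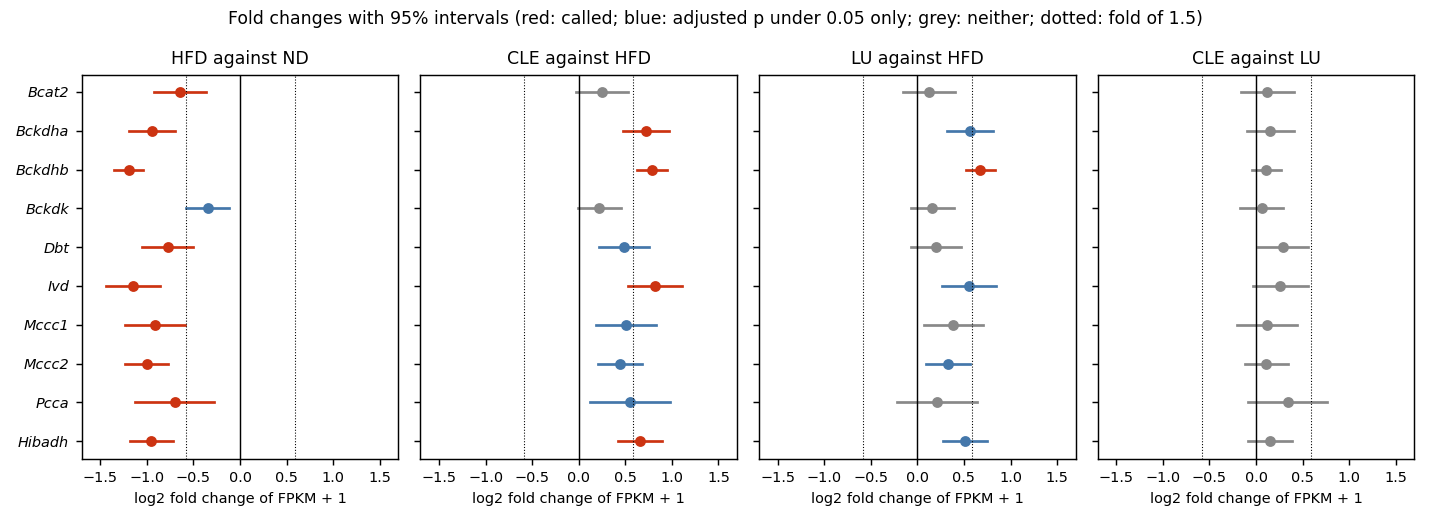
Log2 fold changes of FPKM + 1 (x axes) with 95% intervals for the 10 genes (y axis) in 4 comparisons; red passed the adjusted p and the fold of 1.5, blue the adjusted p alone, grey neither, and dotted lines mark the fold of 1.5. Every point of HFD against ND lies below 0 (-1.19 to -0.35), and the points of CLE against LU lie close to 0 (0.06 to 0.34).

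Between the supplements, 0 of the 10 genes passed (limma) for CLE against LU, where 0.0078% of all genes (1 gene) did, and 1 gene, Dbt, had an unadjusted p under 0.05. The adjusted p was at least 0.898 for each of the 10 genes. All 10 log2 fold changes were above 0, from 0.06 (Bckdk) to 0.34 (Pcca), with a median of 0.14 against -0.03 over all genes. The 95% interval of the difference was -0.05 to 0.27 for Bckdhb, 0.02 to 0.56 for Dbt, -0.03 to 0.55 for Ivd and -0.09 to 0.76 for Pcca. The 3 CLE values lay above the 3 LU values for Bckdhb alone of the 10, as they did for 2.7% of all genes. For Pcca the interval reaches past the fold of 1.5, which is 0.585 on this scale, and the intervals do not show that the supplements act alike. The doses, 1.5% of an extract and 0.003% of a compound, were not matched.

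Set beside ND, 0 of the 10 genes differed in CLE mice by the adjusted p and the fold (limma), 7 had an unadjusted p under 0.05, and 0.874% of all genes were lower in CLE. By the adjusted p alone, Bckdhb (-0.41, adjusted p = 0.0146) and Mccc2 (-0.56, adjusted p = 0.0178) were lower, against 1.92% of all genes. In LU mice, Ivd (-0.59, adjusted p = 0.0149) and Mccc2 (-0.67, adjusted p = 0.00302) fell relative to ND, against 1.59% of all genes, and 8 of the 10 genes had an adjusted p under 0.05, against 4.08%. Mccc2 was at -0.37 (adjusted p = 0.331) with its transcript of highest mean, and Ivd at -0.57 with a covariate for R, under the fold of 1.5. The count for LU depended on single libraries, with 5 genes without ND mouse 4, 4 without LU mouse 2, and 1 without ND mouse 2 or LU mouse 8. Of all genes, 7.54%, 5.81%, 5.14% and 4.47% passed in these fits, in either direction. Without the 4 libraries with the letter R, 5 genes rose with CLE and 2 with LU relative to HFD, and 0 passed for CLE against LU. Of all genes, 14.9%, 11.6% and 0.0078% passed there in either direction. The log2 fold changes against ND then ran from -1.35 (Ivd) to -0.39 (Bckdk) in HFD and from -0.69 (Mccc2) to 0.14 (Pcca) in CLE. In LU they ran from -0.88 (Ivd) to -0.23 (Bckdk). That setting leaves 1 ND library (mouse 2), whose spread is assumed to be that of the other groups, and 2 libraries each of CLE and LU. The comparisons of CLE and LU with HFD share the HFD mice, and those with ND share the ND mice.

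Some counts rested on single libraries in the same way. The 4 genes raised by CLE became 6 without CLE mouse 11 and 3 without CLE mouse 2, where 18.2% and 15.5% of all genes passed in either direction. CLE mouse 11 had the lowest mean standardized level of the 10 genes in its group (-0.21, against 0.80 and 0.21). In its group it was also highest for the macrophage markers Adgre1, Cd68, Csf1r, Itgax, Lyz2 and Ptprc. Cd68 was at 71.0 FPKM in it, against 27.7 and 39.6, and Itgax at 29.8 FPKM, against 5.75 and 6.83. Cd14 was lowest in it (8.454 FPKM, against 9.435 and 10.74), and C1qa lay between the other CLE mice (59.22 FPKM, against 56.34 and 61.53). In the same mouse 3 skeletal muscle genes summed to 11.6 FPKM. The part of these in the count was not tested. The 1 gene raised by LU became 3 without HFD mouse 15 or without LU mouse 8, and 2 without LU mouse 2 or LU mouse 3. Of all genes, 11.6%, 13.3%, 11.4% and 10.6% passed in these fits, in either direction. By the adjusted p alone, 8 genes were higher with CLE, where 15.6% of all genes were, and 5 with LU, where 13.3% were. All 3 CLE values lay above all 3 HFD values for 8 genes, and all 3 LU values did so for 8 genes, where 24.3% and 25.6% of all genes did.

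Because the genes moved together, their start regions were read. The 250 bases before the RefSeq start (GRCm38.p6, gene strand) were available for 9 of the 10 genes, in 12 windows since some genes have more than 1 start. Shown here are the windows of Bckdhb at chr9:83924887-83925136 (plus strand) and of the carboxylase subunits Mccc1 at chr3:36000679-36000928 (minus strand) and Mccc2 at chr13:100015640-100015889 (minus strand), since E1 beta had the largest HFD difference and the carboxylase genes encode partners of 1 enzyme. Capitals mark the CCAAT box, the GC box GGGCGG and the E-box CACGTG on either strand.
Bckdhb: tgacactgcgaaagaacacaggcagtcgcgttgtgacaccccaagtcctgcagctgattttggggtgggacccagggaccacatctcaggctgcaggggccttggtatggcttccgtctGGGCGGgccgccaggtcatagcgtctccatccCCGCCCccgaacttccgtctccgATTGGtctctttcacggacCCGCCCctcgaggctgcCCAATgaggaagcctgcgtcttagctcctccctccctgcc
Mccc1: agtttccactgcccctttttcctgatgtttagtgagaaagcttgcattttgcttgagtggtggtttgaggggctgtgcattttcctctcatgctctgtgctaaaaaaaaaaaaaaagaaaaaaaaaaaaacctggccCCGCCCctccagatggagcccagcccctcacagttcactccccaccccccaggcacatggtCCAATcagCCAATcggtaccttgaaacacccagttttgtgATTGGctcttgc
Mccc2: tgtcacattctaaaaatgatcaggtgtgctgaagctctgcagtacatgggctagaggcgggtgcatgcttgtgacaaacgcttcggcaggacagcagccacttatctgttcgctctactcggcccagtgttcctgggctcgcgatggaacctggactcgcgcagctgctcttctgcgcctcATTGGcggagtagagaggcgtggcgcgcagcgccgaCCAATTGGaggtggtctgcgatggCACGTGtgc
The Mccc1 and Mccc2 windows hold 3 CCAAT boxes each, and the Bckdhb window shown holds 2 CCAAT boxes and 3 GC boxes. Bckdhb has another window, at chr9:83948531-83948780, with 0 matches to these letters or to the others counted below. That window ends just before the start of ENSMUST00000190166, which held 24.9% of the gene's mean FPKM.

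The letters CCAAT, on either strand, stood in 8 of the 12 windows (7 genes) and in 33.8% of the 32851 windows of this length in the RefSeq table. GGGCGG stood in 4 of 12, against 32.7% of all windows, and CACGTG in 1 (Mccc2), against 6.02%. CACCC, letters bound by Kruppel-like factors, stood in 8 of 12, against 52% of all windows, and AGGTCA, found in nuclear receptor elements, in 2 (Bckdhb and Pcca), against 14%. TATAAA stood in 1 window (Bckdk), against 12.4%. TCAAGGTCA, the element of the estrogen-related receptors, stood in 0 of 12, against 0.387%. The AGGTCA letters are contained in TCAAGGTCA. These matches describe letters and are not evidence of binding.

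The other genes of the pathway were taken from a list of 20, all of which were tested. In HFD mice 9 of the 20 fell and 2 rose relative to ND, where 10.8% of all genes fell and 14.9% rose. The genes that fell were Ppm1k (-0.71), Acadsb (-0.89), Echs1 (-1.04), Hsd17b10 (-0.996), Acat1 (-0.69), Hibch (-0.78), Aldh6a1 (-1.11), Pccb (-0.91) and Mmaa (-0.70), given as log2 fold changes with adjusted p between 2.70e-05 and 0.000436 (limma). The list median was -0.52. CLE raised 7 of the 20 and lowered 1, Bcat1, where 6.34% of all genes were raised and 10.2% were lowered. LU changed 0 of the 20 by both criteria (limma). By the adjusted p alone 10 were higher with LU, as were 13.3% of all genes, and 12 had an unadjusted p under 0.05.

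Aldh6a1, which acts late in valine breakdown, was at 332, 253 and 233 FPKM in ND, 129, 128 and 117 FPKM in HFD, 247, 221 and 167 FPKM in CLE, and 184, 177 and 157 FPKM in LU. It was the most abundant gene of the list in ND mice, and all HFD values were lowest. Pccb, the partner of Pcca, was at 263, 227 and 218 FPKM in ND, 133, 121 and 121 FPKM in HFD, 252, 223 and 185 FPKM in CLE, and 184, 188 and 174 FPKM in LU. Pccb had the largest rise of the list with CLE, 0.80 (SE 0.12; adjusted p = 0.000349). Ppm1k, the phosphatase that activates BCKDH, was low, at 5.24 ± 0.492 FPKM in ND and 2.81 ± 0.0934 FPKM in HFD (SD, n = 3), and rose by 0.59 (adjusted p = 0.00281) with CLE, at the border of the fold of 1.5.

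Bcat1, the cytosolic aminotransferase, went the other way. It was at 1.05, 2.28 and 3.54 FPKM in ND, 8.64, 9.89 and 6.71 FPKM in HFD, 4.64, 3.87 and 3.94 FPKM in CLE, and 6.22, 4.10 and 6.48 FPKM in LU. All HFD values were highest. It rose by 1.58 (SE 0.25; adjusted p = 0.000319) in HFD and was lowered by CLE (-0.86, adjusted p = 0.0204). The ratio of Bcat2 to Bcat1 FPKM was 86.4, 32.2 and 19.0 in ND, 5.32, 5.47 and 6.84 in HFD, 13.3, 13.1 and 15.6 in CLE, and 8.69, 13.8 and 7.46 in LU. Macrophage markers moved in the same direction as Bcat1, as given below, and their part in its change was not tested.

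Abat, which converts GABA and also an intermediate of valine breakdown, rose by 0.70 (adjusted p = 0.00631) in HFD. Unlike Bcat1, it was higher still with the supplements, at means of 21.3 FPKM in ND, 34.2 in HFD, 45.5 in CLE and 44.4 in LU. The remaining 9 genes of the list did not pass in HFD against ND, among them Dld, the shared E3 (-0.38, adjusted p = 0.00833). Slc25a44, a mitochondrial BCAA carrier, was at 22.7 to 23.9 FPKM in ND and 22.1 to 23.3 FPKM in HFD (log2 fold change -0.03, adjusted p = 0.714).

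**Figure D4:**
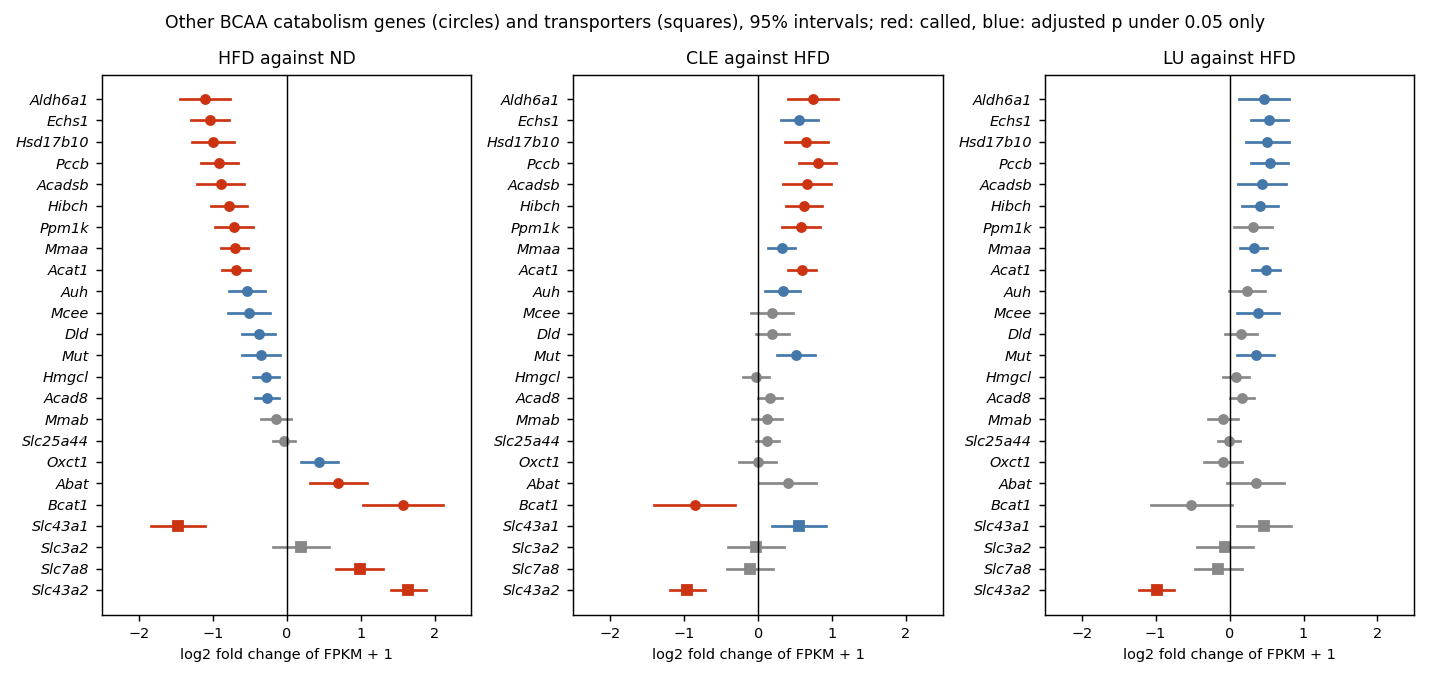
Log2 fold changes of FPKM + 1 (x axes) with 95% intervals for 20 other BCAA catabolism genes (circles) and 4 plasma membrane transporters (squares) on the y axis, coloured as in the plot of the 10 genes. Aldh6a1, Echs1, Hsd17b10 and Pccb lie at -1.11 to -0.91 in HFD against ND, and Bcat1 lies at 1.58.

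Of the plasma membrane transporters, 4 were tested. Slc43a2 (LAT4) was at 10.2, 10.1 and 9.74 FPKM in ND, 34.8, 28.3 and 38.0 FPKM in HFD, 15.4, 18.5 and 16.5 FPKM in CLE, and 16.8, 15.9 and 16.4 FPKM in LU. It rose by 1.65 (SE 0.11; adjusted p = 7.44e-07) in HFD and was lowered by CLE (-0.96, adjusted p = 7.06e-05) and by LU (-0.99, adjusted p = 0.000191), which lowered 7.68% of all genes. Slc7a8 (LAT2) rose by 0.99 in HFD (adjusted p = 0.000176), and Slc43a1 (LAT3) fell by 1.47 (adjusted p = 2.94e-05). Slc7a8 was not lowered by the fold with either supplement, at means of 10.81 FPKM in ND, 22.29 in HFD, 20.75 in CLE and 19.95 in LU. These carriers also take other neutral amino acids.

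Of 4 regulators, 0 passed both criteria (limma) in any of the 6 comparisons. Klf15, a transcription factor linked to amino acid breakdown, was at 20.4 ± 6.46 FPKM in ND and 13.4 ± 1.84 FPKM in HFD (SD, n = 3; log2 fold change -0.53, adjusted p = 0.0385 by limma). The groups overlapped, with ND mouse 4 at 13.1 FPKM and the HFD mice at 12.2 to 15.5 FPKM. The CLE values of Klf15, 18.2 to 19.8 FPKM, lay above all HFD values, as they did for 24.3% of all genes. Its LU values, 13.9 to 16.8 FPKM, overlapped the HFD values. Pparg, the adipocyte nuclear receptor, had an adjusted p under 0.05 without the fold in HFD against ND (-0.44), CLE against HFD (0.44) and LU against HFD (0.42). At an unadjusted p under 0.05, 2 of the 4 regulators stood out in HFD against ND, 2 in CLE against HFD and 1 in LU against HFD.

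The 10 genes were set beside lists of cell type and mitochondrial genes. Of 8 adipocyte markers, 7 fell in HFD (median -0.84), 7 rose with CLE (0.66) and 4 rose with LU (0.57), and Lpl passed in none of the 3. Their summed level ran from 36130 to 37566 FPKM in ND, 18899 to 21241 FPKM in HFD, 28170 to 31880 FPKM in CLE and 26909 to 32542 FPKM in LU. Fabp4 made up much of this sum, at 19230 to 20210 FPKM in ND and 10460 to 11880 FPKM in HFD. All 8 macrophage markers rose in HFD (median 2.47) and fell with both CLE (-1.71) and LU (-1.28). Their summed FPKM ran from 343.5 to 523.1 in ND, 2319 to 2715 in HFD, 601.4 to 895 in CLE and 959.9 to 1073 in LU. Lyz2 made up much of that sum, at 1506 to 1787 FPKM in HFD. The part of the cell makeup of the tissue in the differences of the 10 genes was not tested.

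Taken as a difference from the median adipocyte marker of the same library, a measure chosen after the values were seen, the 10 genes had a median log2 difference of -0.10 between HFD and ND, with 6 below 0 and 4 above, where the median over all genes was 0.81. On this scale Bckdhb (-0.37) and Ivd (-0.32) were still lower in HFD with no overlap between the groups, as were 1.76% of all genes, and Bckdk (0.48) was higher with no overlap, as were 83.5%. For CLE and LU against HFD the medians were -0.18 and -0.17, with 7 of the 10 genes below 0 in each, and over all genes they were -0.71 and -0.50. Bcat2, Bckdk, Dbt and Mccc2 were lower than in HFD with no overlap in both, as were 82.2% of all genes with CLE and 71.4% with LU, and Bckdhb (0.15) was higher with LU with no overlap, as were 1.38%. Relative to the median of 10 mitochondrial genes (citrate synthase, respiratory chain, import and channel genes), the 10 genes had a median of -0.59 in HFD against ND, where all genes had 0.32. On that scale 8 genes were lower in HFD with no overlap, as were 7.3% of all genes, and Bcat2 (-0.30) and Bckdk (-0.0047) overlapped. The median was 0.42 with CLE and 0.25 with LU (all genes -0.11 and -0.08), and 8 and 6 of the genes were higher with no overlap, as were 12.2% and 13.5% of all genes. Of the mitochondrial genes themselves, 3 of 10 fell in HFD (Sdha, Sdhb and Uqcrc2), and 0 passed with CLE or LU (limma), with 3 at an unadjusted p under 0.05 in each.

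**Figure D5:**
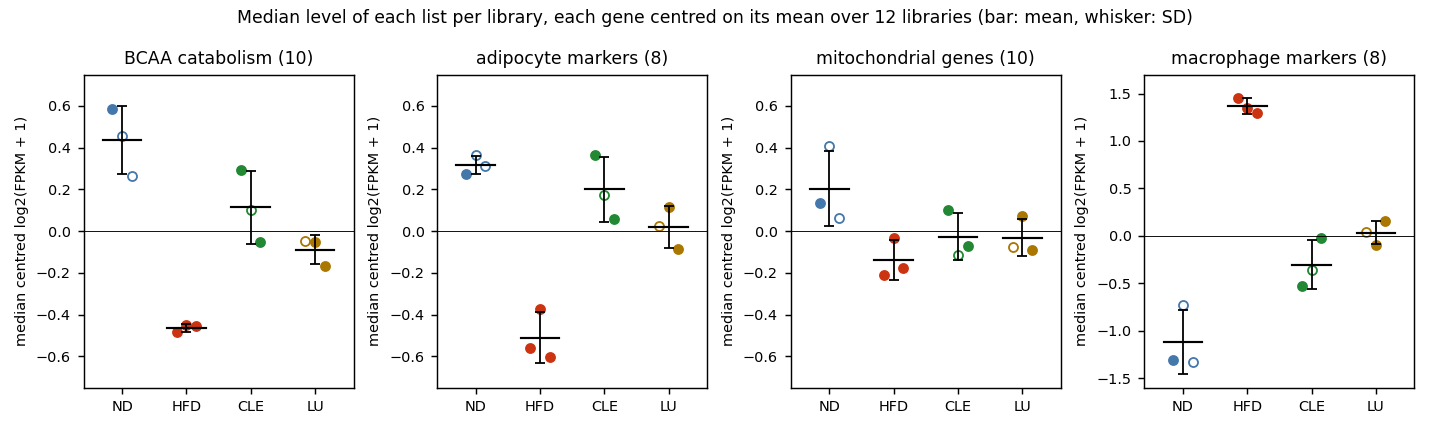
Median log2(FPKM + 1) of 4 gene lists in each library (y axes, each gene centred on its mean over the 12 libraries; the macrophage panel has a wider axis) by group (x axes), with mean bars and SD whiskers, n = 3. The BCAA catabolism and adipocyte panels share the order ND, CLE, LU, HFD (means 0.44, 0.11, -0.09 and -0.46 for the BCAA genes), and the macrophage panel has the reverse order.

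The 10 genes also varied together. Over the 12 libraries, each gene correlated with the mean of the other 9 at a Pearson r between 0.768 (Pcca) and 0.972 (Hibadh), a description of libraries that differ by diet. Of the 12804 other genes, those most like the mean profile of the 10 genes were Klhl2 (r = 0.993), Slc44a3 (0.991), Adhfe1 (0.988), Idh3g (0.988) and Gys1 (0.987).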

How the data were processed

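RNA of eWAT from 3 mice of each of 4 groups was measured. The groups came from the sample labels. The columns name CLE by another abbreviation, which was mapped through the titles. The authors deposited FPKM per transcript for each library. The methods name Cuffdiff for gene counts, which are not analysed here, and the tool that made the FPKM is not given in the sources used here. The submitters' processing notes name CASAVA 1.8.2, Bowtie2 2.2.3, TopHat2 2.0.12 and Cufflinks 2.2.1. The genome build is not given in the sources used here. Of the known transcripts, 87.6% of those found in GENCODE M21 (GRCm38) had the same start and end there, and gene positions are those of M21. FPKM carry no counts, so no count test was used and no interval of depth is given. The table has 3 FPKM columns of no sample in the labels and marks of the authors' own comparisons, and neither were used.

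Known transcripts and those assembled on them (class codes = and j) were summed to 23133 genes, and the 12814 that reached an FPKM of 1 in 3 or more libraries were tested. The 10 genes are summed from 88 rows. limma 3.58.1 (R 4.3.3) was fitted once to log2(FPKM + 1) of the 12 libraries, with group as the factor, 6 contrasts and Benjamini-Hochberg adjustment over all genes tested. The thresholds were an adjusted p of 0.05 and a fold of 1.5. Since labels give separate mice, p-values measure the spread between mice. Exact permutation tests were two-sided. Tables and plots were made with Python 3.11.15, pandas 2.3.3, numpy 2.4.6 and matplotlib 3.10.9.

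The 10 genes and all lists were chosen with earlier results of these data known. Named were all 10 genes, genes of the other lists called in any contrast, markers by their range, and the 5 genes most like the mean profile. Others, such as Dld, Slc25a44, Klf15 and Pparg, were named after their values were seen. The promoter windows come from RefSeq, whose table has no entry for Dbt, and windows on chromosome 18 were left out.

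Tried as alternatives were log2(FPKM + 0.1), every gene above 0 or genes averaging 5 FPKM in place of the filter, 3 scalings of the libraries (equal totals, median ratios and quantiles), separate fits per comparison, a mean-variance trend, a covariate for the letter R, the R libraries left out, calls without the fold, each gene's strongest transcript, a sum without class code j, a sum without non-coding transcripts, and each library left out. Slc7a5 and Acta1 were not analysed here.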

Additional observations from a re-analysis of the deposited data

How the results depend on the processing

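Of 1600 values of the 10 genes under the alternatives, 1525 kept their direction and their side of the thresholds, 51 passed where they had not, 15 no longer passed and 9 changed sign. The direction could not change in some settings. Fits with another filter or without a library outside the comparison keep the fold change. Calls without the fold reuse the main fit and can only add calls. The genes that fell in HFD against ND numbered 8 to 10 under every alternative, and the genes passing for CLE against LU numbered 0. Leaving out each library gave 8 to 9 genes for HFD against ND, 3 to 6 for CLE against HFD, 1 to 3 for LU against HFD, 0 to 1 for CLE against ND and 1 to 5 for LU against ND. In the same order, 24.7% to 26.5%, 14.9% to 18.2%, 10.6% to 13.3%, 0.999% to 3.94% and 4.47% to 7.54% of all genes passed in either direction. By the adjusted p alone, the counts were 8 for CLE against HFD, 5 for LU against HFD, 2 for CLE against ND and 8 for LU against ND. LU against HFD had 2 genes with the letter R as a covariate, with the R libraries left out, with the transcript of highest mean and without non-coding transcripts. CLE against ND had 1 with the transcript of highest mean and 1 without class code j. The causes were not tested.

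The calls lost for single genes were few in HFD against ND. Pcca was at -0.59 (adjusted p = 0.0565) with a covariate for R and at -0.48 (adjusted p = 0.0638) without the R libraries, where ND is 1 mouse and its spread is assumed to be that of the other groups, and Mccc2 at -0.54 (adjusted p = 0.0643) with its transcript of highest mean. With CLE, Bckdha was at 0.53 with the transcript of highest mean and without class code j, and Hibadh at 0.57 without CLE mouse 2. With LU, Bckdhb was at 0.46 with the transcript of highest mean. In LU against ND, Mccc2 was at -0.37 (adjusted p = 0.331) with that transcript, and Ivd at -0.57 with a covariate for R, at -0.55 (adjusted p = 0.0857) with the replicate block, and at -0.49 to -0.55 without ND mouse 2, LU mouse 3 or LU mouse 8.

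The sign changed for Bcat2 in CLE against HFD with the transcript of highest mean (-0.037). In CLE against LU it changed for Bcat2 with the transcript of highest mean (-0.12) and without class code j (-0.12), for Bckdha under the same settings (-0.048 in both), for Bckdhb without class code j (-0.0072) and for Bckdk without CLE mouse 2 (-0.061, with 0.173 the highest value, without CLE mouse 11). In CLE against ND it changed for Pcca without ND mouse 3 (0.083, with -0.28 the lowest value, without CLE mouse 2) and without the R libraries (0.14). None of these values had an adjusted p under 0.05 (limma).

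The labels give some mice of ND, CLE and LU the same number, and the HFD mice share none, so a replicate block could be fitted only over the 9 libraries of ND, CLE and LU. The deviations of same-numbered mice correlated at r between -0.10 and 0.19. The pairs are few and some differ in the letter R, so these values cannot show whether such mice share more than a number. With the replicate block, the count was 1 for LU against ND (2 in the same libraries without the block) and 0 for CLE against ND. Without counts, the depth that limits each value is unknown, and the intervals, not the p-values, show which sizes of difference 3 mice a group leave possible.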

Other observations

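Markers of other cell types, apart from the endothelial ones, were low or varied within groups. Endothelial markers (4 genes) summed to 195.1 to 320.6 FPKM in ND, 156.4 to 264.8 in HFD, 247.2 to 366.4 in CLE and 282.1 to 340.2 in LU. Of these, 0 passed in HFD against ND (limma, 2 at an unadjusted p under 0.05), and 2 rose with CLE and 3 with LU. Relative to HFD, their median log2 fold change was 0.62 with CLE and 0.68 with LU, against 0.53 and 0.36 for the 10 genes. The 4 mesothelial markers all fell in HFD and summed to 5.76 to 48.2 FPKM in ND, highest in ND mouse 4, and to 0.345 to 4.06 FPKM in HFD. Of the beige and brown adipocyte genes, 3 of 5 were tested, and Cidea alone passed in HFD against ND, falling from 4.40 to 1.14 FPKM on average. Cox8b was at means of 17.7 FPKM in ND and 16.1 FPKM in HFD. Elovl3 was higher in HFD, at means of 0.277 FPKM in ND and 1.12 FPKM in HFD, with the groups overlapping. Ucp1 and Dio2 were under 1 FPKM in every library and were not tested. Liver genes (4) summed to at most 32.7 FPKM in any library, and 2 fell in HFD. Skeletal muscle genes passed the filter in 0 of 3 cases, and summed to 4.05 FPKM in HFD mouse 12 and 11.6 FPKM in CLE mouse 11. Of 4 epididymis genes, Lcn5 and Rnase9 were listed at 0 in every library. The part of these in the differences of the BCAA catabolism genes was not tested.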
